A study of Mus musculus with 12 samples.

Results

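The main effect of AOS on the transcriptome of the mouse small intestine was measured over 2 busulfan states at once: 6 libraries at AOS 10 were compared with 6 libraries at AOS 0, with busulfan (given or not) as a covariate in an additive model. These were all 12 libraries of the series. The tissue was small intestine, and the mice were ICR, an outbred laboratory strain. The groups, of 3 libraries each, were AOS0 (AOS 0, no busulfan), AOS10 (AOS 10, no busulfan), B+A0 (AOS 0 in busulfan-treated mice) and B+A10 (AOS 10 in busulfan-treated mice). The labels do not expand AOS or give its unit or route, and they give no age, sex, dose of busulfan or time of sampling. Nothing in them states that each library is its own animal, and p-values here cover only the spread between libraries, which may be technical.

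The small intestine is lined by an epithelium that is renewed from dividing crypt cells. Its absorptive enterocytes digest and take up nutrients, assemble dietary fat into chylomicrons and detoxify ingested compounds, while secretory lineages make hormones, mucus and antimicrobial proteins. Sterol synthesis genes in these cells are controlled by sterol-sensing transcription factors, interferon-stimulated genes by STAT and IRF factors, and metallothioneins by the metal-responsive factor MTF1. Busulfan, a chemotherapy agent, alkylates DNA and is toxic to dividing cells.

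Library totals ranged from 13560246 to 16818237 counts, and 12594 to 12889 genes had at least 5 counts. Neither the total (exact permutation p = 0.175, two-sided, AOS labels permuted within each busulfan state, 400 arrangements, smallest possible p 0.005) nor the share of counts in the 50 highest genes (exact permutation p = 0.46) passed 0.05 between AOS levels. Epithelial markers were abundant in every library, from 1402 to 1628 CPM (counts scaled to a common library size by TMM) for Epcam and 4292 to 5808 CPM for Krt8. Markers of other cells were scarcer. Summed over the list, T and NK cell genes had 63.2 to 424 CPM in the 12 libraries and smooth muscle genes 245 to 311. Mast cell and eosinophil genes had 23.8 to 149 CPM and neutrophil genes 0.0648 to 0.647. Of the genes in the table, 17 of 18 for T and NK cells passed the low-count filter and 6 of 11 for mast cells and eosinophils. For neutrophils 0 of 5 passed and for smooth muscle 2 of 10. B+A0 replicates 2 and 3 stood apart from the other libraries on the first principal component (28.4% of the variance). Additive results of most lists below are therefore also given without both of them.

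No gene passed the threshold for AOS. Of 12329 genes tested with edgeR's quasi-likelihood test, 0 had a Benjamini-Hochberg adjusted p under 0.05 (0%), and the smallest adjusted p was 0.129. At an unadjusted p under 0.05 there were 1144 genes (9.28%), of which 634 were higher at AOS 10 (5.14% of genes tested) and 510 lower (4.14%). Those counts were 1283 and 1287 without B+A10 replicate 3, 956 higher without B+A0 replicate 1 and 360 higher without B+A0 replicates 2 and 3. With any 1 library left out they were 461 to 1283 higher and 341 to 1287 lower. Counts of list members given below with a library left out stand beside these all-gene counts, which moved too. On the same 12 libraries DESeq2 called 51 genes, 36 higher and 15 lower, and limma on log2(FPKM + 1) called 1. Dropping B+A0 replicate 1 left edgeR with 23 calls, dropping B+A10 replicate 3 with 16 and dropping AOS0 replicate 3 with 1. Busulfan, in the same additive fit, gave 587 calls (4.76%; 343 higher, 244 lower). Every AOS difference below is therefore a measured difference that did not pass over all genes by edgeR. Genes are named for the smallest p, as chosen markers, as examples of lists or, where said, after their values were seen.

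The differences were small for most genes. Among the 11637 genes averaging 1 CPM or more, the median absolute log2 fold change was 0.081 and the 90th percentile 0.259, beside a median SE of 0.0918. The 6 AOS 10 libraries lay wholly above the 6 AOS 0 libraries for 14 genes (0.114%) and wholly below for 31 (0.251%). The 3 libraries at AOS 10 lay above the 3 at AOS 0 within both busulfan states for 55 genes (0.446%), below in both for 71 (0.576%) and on opposite sides for 86 (0.698%).

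Mt2 was among the genes with the smallest p. It encodes a metallothionein, a small cysteine-rich protein that binds zinc and copper (gene ID 17750, chromosome 8, 94172618 to 94173567 on GRCm38). Its level was 122, 116 and 143 CPM in AOS0, 298, 436 and 222 in AOS10, 109, 144 and 94 in B+A0 and 162, 239.6 and 143 in B+A10. The AOS10 libraries lay above all AOS0 libraries, while the B+A0 and B+A10 libraries overlapped (edgeR log2 fold change 0.99, SE 0.19, adjusted p = 0.129). Mt1, its neighbour on the chromosome and near relative, had 184, 238 and 237 CPM in AOS0, 470.4, 623 and 361 in AOS10, 239, 279.6 and 226 in B+A0 and 285, 411 and 233 in B+A10. Its groups did not overlap without busulfan and overlapped with it (log2 fold change 1.14 without busulfan and 0.32 with it, adjusted p 0.126 and 0.658, edgeR; additive adjusted p = 0.326). Mtf1, which encodes the metal-responsive transcription factor of these genes, had 50.4 to 58.8 CPM (median 52.4) in the 6 AOS 0 libraries and 56.5 to 70.5 CPM (median 63.3) in the 6 AOS 10 libraries (edgeR log2 fold change 0.23, SE 0.052, adjusted p = 0.286). Of the zinc transporters, Slc30a1 had a log2 fold change of -0.089 and Slc39a4, the main importer of dietary zinc, -0.017. Mt1, Mtf1 and both transporters were looked up after the value of Mt2 was seen.

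The promoter of Mt2 is shown because Mt2 is a direct target of a metal-responsive factor whose motif can be looked for in it. The line gives 250 bases before the transcript start of the promoter table, 5′ to 3′ (RefSeq, GRCm38.p6; chr8:94172368-94172617, plus strand). Capitals mark matches, on either strand, to 2 forms of the metal response element, TGCACNC and TGCGCNC, which do not overlap here.

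Mt2: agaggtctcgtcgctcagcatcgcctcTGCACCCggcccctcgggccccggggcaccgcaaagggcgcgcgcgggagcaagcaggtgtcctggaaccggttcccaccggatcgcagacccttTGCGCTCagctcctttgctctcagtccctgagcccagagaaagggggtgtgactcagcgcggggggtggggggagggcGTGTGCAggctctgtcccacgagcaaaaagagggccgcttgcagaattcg

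Mt2 held 3 matches, at 223 to 217, 128 to 122 and 50 to 44 bases before the start. Of 27025 promoters of this length, 10.2% held TGCACNC and 12.6% TGCGCNC. A match is a description of the letters and not a measured site.

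Genes of cholesterol and fatty acid synthesis were lower at AOS 10 as a group in both busulfan states. Of 29 tested members 28 were below 0, beside 50.5% of all genes, and 25 were below 0 in both states, beside 26.1% of all genes. The median log2 fold change was -0.23 (-0.23 without busulfan, -0.20 with it), beside -0.0016 over all genes. At an unadjusted p under 0.05, 17 were lower and 0 higher, beside 4.14% and 5.14% of all genes, and 0 passed the adjusted threshold. The count was 15 to 20 when any 1 library was left out, and 17 without B+A0 replicates 2 and 3 (median -0.22). The single member above 0 was Srebf1, which encodes a transcription factor of lipid synthesis (log2 fold change 0.059).

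Scd2, a stearoyl-CoA desaturase that makes monounsaturated fatty acids, had 552, 479 and 466 CPM in AOS0, 229, 251 and 314 in AOS10, 488, 390.4 and 499.9 in B+A0 and 357, 348 and 414 in B+A10. The levels did not overlap without busulfan and overlapped with it (edgeR log2 fold change -0.61, SE 0.12, adjusted p = 0.167), and the log2 fold changes of -0.92 and -0.30 differed at an unadjusted interaction p of 0.00583 (adjusted p = 0.5, edgeR). Lss, the lanosterol synthase that closes the sterol ring, had 65.8 to 76.5 CPM (median 74.5) in the 6 AOS 0 libraries and 54.8 to 70.1 CPM (median 58.6) in the 6 AOS 10 libraries (edgeR log2 fold change -0.28, SE 0.069, adjusted p = 0.326).

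Other enzymes along the sterol pathway were lower to a similar extent. The log2 fold change was -0.29 for Hmgcs1, which makes the precursor of mevalonate, -0.30 for Mvd, -0.30 for squalene synthase Fdft1, -0.35 for squalene epoxidase Sqle, and -0.38 and -0.21 for the late demethylation enzymes Msmo1 and Nsdhl. All 6 were below 0 in each busulfan state, from -0.16 (Nsdhl) to -0.45 (Hmgcs1) without busulfan and from -0.13 (Hmgcs1) to -0.36 (Sqle) with it. The summed level of the list was 4067, 4224 and 4209 CPM in AOS0, 3196, 3143 and 3819 in AOS10, 4067, 3695 and 4266 in B+A0 and 3268, 3458 and 3617 in B+A10. AOS 10 libraries lay below AOS 0 libraries within each busulfan state, and across the states AOS10 replicate 3 lay above B+A0 replicate 2.

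The promoter of Hmgcs1 is shown as that of the enzyme at the entry of the pathway (chr13:119690101-119690350, plus strand, RefSeq GRCm38.p6, 250 bases before the start in the promoter table). Capitals mark 1 sterol regulatory element (TCACNCCAC) and 3 CCAAT boxes, which read ATTGG on this strand.

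Hmgcs1: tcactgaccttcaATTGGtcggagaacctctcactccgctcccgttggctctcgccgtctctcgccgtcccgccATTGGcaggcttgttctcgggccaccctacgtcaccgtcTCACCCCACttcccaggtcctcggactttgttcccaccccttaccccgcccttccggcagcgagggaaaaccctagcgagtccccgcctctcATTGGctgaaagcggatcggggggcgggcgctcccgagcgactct

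The sterol element lay 137 to 129 bases before the start. On either strand, TCACNCCAC was found in 1 of the 19 list members with a promoter in the table (5.26%), beside 1.04% of all promoters. That member was Hmgcs1 itself, so the promoter shown is not typical of the list in this element. CCAAT was found in 15 of 19 (78.9%), beside 34.5%.

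**Figure D1:**
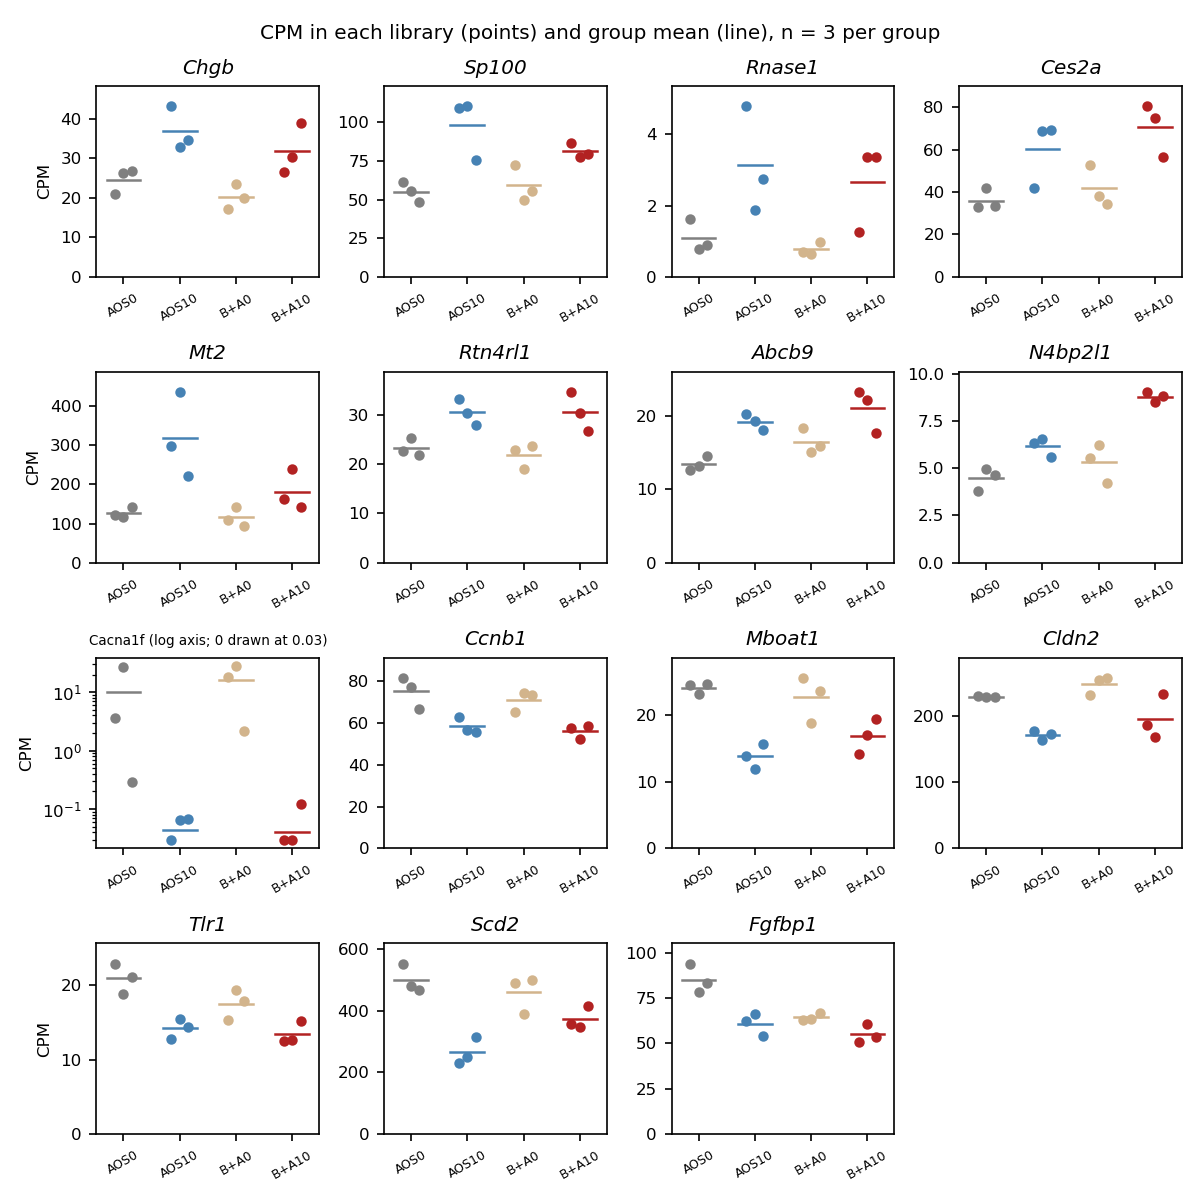
CPM (vertical axis) of 15 of the genes with the smallest p in either direction, in each of the 12 libraries (points, replicates 1 to 3 from left to right) with the group mean (line). For Ccnb1 the 6 AOS 10 libraries lie below the 6 AOS 0 libraries, and for Sp100 and Rtn4rl1 above them, while Cacna1f, on a log axis, spans 0.296 to 27.8 CPM within AOS 0.

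RNA levels of fat absorption genes ran the other way. Of 25 tested genes of lipid absorption and chylomicron assembly, 25 were above 0, beside 49.5% of all genes, and 20 were above 0 in both busulfan states, beside 25.7%. The median log2 fold change was 0.25 (0.22 without busulfan, 0.27 with it). Of these, 10 were higher and 0 lower at an unadjusted p under 0.05, beside 5.14% and 4.14% of all genes. Dropping B+A0 replicate 1 gave 17, beside 956 higher and 569 lower over all genes. Dropping B+A0 replicate 2 gave 6, and so did dropping B+A10 replicate 2. Without B+A0 replicates 2 and 3 together it was 0, with a median of 0.11. The summed level was 11658, 14319 and 13022 CPM in AOS0, 14673, 14561 and 13468 in AOS10, 15574, 7827 and 8534 in B+A0 and 13515, 16363 and 10168 in B+A10. B+A0 replicates 2 and 3 were the lowest 2 libraries, and B+A0 replicate 1 was above every library but B+A10 replicate 2.

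Members differed in size, from 0.0014 for Sar1b, which helps chylomicrons leave the endoplasmic reticulum, and 0.011 for the apolipoprotein Apoa4 to 0.58 for Creb3l3. Slc27a4, a fatty acid transport protein of the brush border, had a log2 fold change of 0.43, and Mogat2 and Dgat2, which rebuild triglycerides, 0.33 and 0.34. Mttp, which loads lipid onto apolipoprotein B, had 0.26, and Apob itself 0.24. Creb3l3, a membrane-bound transcription factor of lipid genes, had 93.3, 127 and 121 CPM in AOS0, 174, 169 and 144 in AOS10, 163, 67.6 and 87.4 in B+A0 and 169.5, 222 and 106 in B+A10. AOS10 lay above AOS0, while B+A0 replicate 1 lay above B+A10 replicate 3 (edgeR log2 fold change 0.58, SE 0.20, adjusted p = 0.413). Fabp1, the fatty acid-binding protein chosen as a marker, had 194 to 608 CPM (median 497) in the 6 AOS 0 libraries and 352 to 581 CPM (median 529) in the 6 AOS 10 libraries. Its levels overlapped throughout (edgeR log2 fold change 0.13, SE 0.20, adjusted p = 0.874), and its sign turned without B+A0 replicate 2 (log2 fold change -0.016).

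Genes of fatty acid oxidation showed the same sign with smaller values. Of 24 tested PPAR-alpha targets and oxidation genes 24 were above 0 and 20 in both states, beside 49.5% and 25.7% of all genes. The median was 0.13 (0.13 without busulfan, 0.14 with it). At an unadjusted p under 0.05, 6 were higher and 0 lower (11 without B+A0 replicate 1, 4 without B+A0 replicates 2 and 3, median 0.076), and the median was 0.087 without B+A0 replicate 3. Acaa2 and Acadl, enzymes of the oxidation spiral, had log2 fold changes of 0.27 and 0.25, and Ppara, the fatty acid-sensing receptor, 0.21.

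Digestive enzymes and transporters of the enterocyte brush border were mostly above 0. Among 25 tested genes for the brush border and digestion, 22 lay above 0 (median 0.17, 0.088 and 0.23 in the 2 states). There were 5 higher and 1 lower at an unadjusted p under 0.05, beside 5.14% and 4.14% of all genes. With either direction counted, there were 13 without B+A0 replicate 1 (median 0.28) and 4 without B+A0 replicates 2 and 3 (median -0.018, below 0), and the median was 0.088 without B+A0 replicate 3. Ace, a peptidase, had 292, 307 and 311 CPM in AOS0, 533, 512 and 389.9 in AOS10, 291, 125 and 210.2 in B+A0 and 368, 567 and 226 in B+A10. AOS10 lay above AOS0, while B+A0 replicate 1 lay above B+A10 replicate 3 (edgeR log2 fold change 0.77, SE 0.21, adjusted p = 0.345). Anpep, aminopeptidase N, had a log2 fold change of 0.44, Lct, lactase, 0.61, and Vil1, which encodes the microvillus protein villin, 0.17 (adjusted p = 0.646, edgeR; its span overlaps Usp37). The member below 0 at an unadjusted p under 0.05 was Tmprss15, the enteropeptidase that activates trypsinogen, at a mean of 1.25 CPM (log2 fold change -1.33). Genes marking the proximal small intestine had 11 above 0 and 4 below (median 0.21, -0.027 without busulfan and 0.43 with it). Their median was -0.028 without B+A0 replicates 2 and 3. Genes marking the distal part had 7 above 0 and 9 below (median -0.048). The part of position along the intestine in these results was not tested.

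Of 16 tested sugar, amino acid and peptide transporters 13 were above 0 (median 0.26). There were 6 higher and 1 lower at an unadjusted p under 0.05, beside 5.14% and 4.14% of all genes. With either direction counted, dropping B+A0 replicate 1 gave 11, dropping B+A0 replicate 2 or 3 gave 4, and there were 3 without both of the latter (median 0.084). Slc2a5, the fructose transporter, had 25.2, 29.4 and 24.8 CPM in AOS0, 44.1, 32.6 and 36.2 in AOS10, 32, 18.1 and 18.5 in B+A0 and 35, 56.4 and 26.7 in B+A10. AOS10 lay above AOS0, and B+A0 replicate 1 lay among the B+A10 libraries (edgeR log2 fold change 0.65, SE 0.18, adjusted p = 0.354). The sodium-glucose transporter Slc5a1 had a log2 fold change of 0.20 and the basolateral glucose transporter Slc2a2 0.25. Slc6a4, the serotonin transporter of enterocytes, which is in no list and was picked for its p, had 117 to 139 CPM (median 122) in the 6 AOS 0 libraries and 129.7 to 162 CPM (median 156) in the 6 AOS 10 libraries (edgeR log2 fold change 0.31, SE 0.066, adjusted p = 0.255).

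Hormone-making enteroendocrine cells are rare cells of the epithelium that store peptides and serotonin in granules. Of 20 tested genes 19 were above 0, and 17 in both states, with a median of 0.41 (0.39 without busulfan, 0.31 with it). Of these, 9 were higher and 0 lower at an unadjusted p under 0.05, beside 5.14% and 4.14% of all genes. The count was 6 to 11 with any 1 library left out, and the median was 0.42 without B+A0 replicates 2 and 3. In bulk RNA, more cells of a type and more RNA per cell cannot be told apart, here and for every cell type below. Chgb, the granule protein chromogranin B (gene ID 12653, chromosome 2, 132781642 to 132795079), had 21, 26.2 and 26.7 CPM in AOS0, 43.1, 32.8 and 34.6 in AOS10, 17.1, 23.5 and 20.1 in B+A0 and 26.5, 30.2 and 38.9 in B+A10. Levels at AOS 10 lay above those at AOS 0 within each busulfan state, and the 6 against 6 libraries overlapped only where B+A10 replicate 1 lay just below AOS0 replicate 3 (edgeR log2 fold change 0.62, SE 0.11, adjusted p = 0.129). Chga, chromogranin A and a chosen marker, had 25.9, 30.7 and 35.1 CPM in AOS0, 47.9, 40.1 and 43.2 in AOS10, 30.9, 25.8 and 32.5 in B+A0 and 40.0, 34.6 and 31.8 in B+A10. AOS10 lay above AOS0, and B+A10 replicate 3 lay below 1 B+A0 library (edgeR log2 fold change 0.39, SE 0.097, adjusted p = 0.326).

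Hormone genes of several cell types were above 0 together without passing. The log2 fold change was 0.43 for Gcg, the precursor of glucagon-like peptide 1, 0.55 for cholecystokinin, 0.35 for Gip and 0.44 for somatostatin. Gcg did not overlap within either state, at 11.1, 14.7 and 17.9 CPM in AOS0, 23.1, 21.8 and 18 in AOS10, 10.2, 14.4 and 14.4 in B+A0 and 15.2, 18.1 and 15.8 in B+A10. Tph1, the enzyme of serotonin synthesis, did not overlap between the busulfan groups and overlapped between the others (log2 fold change 1.66 with and -0.034 without busulfan, unadjusted interaction p 0.00537, adjusted p = 0.499, edgeR). Tac1, a tachykinin precursor, was the member below 0 (log2 fold change -0.40). The summed level was 289, 352 and 379.9 CPM in AOS0, 447, 403 and 434 in AOS10, 301, 275 and 288 in B+A0 and 330.1, 392 and 356 in B+A10.

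**Figure D2:**
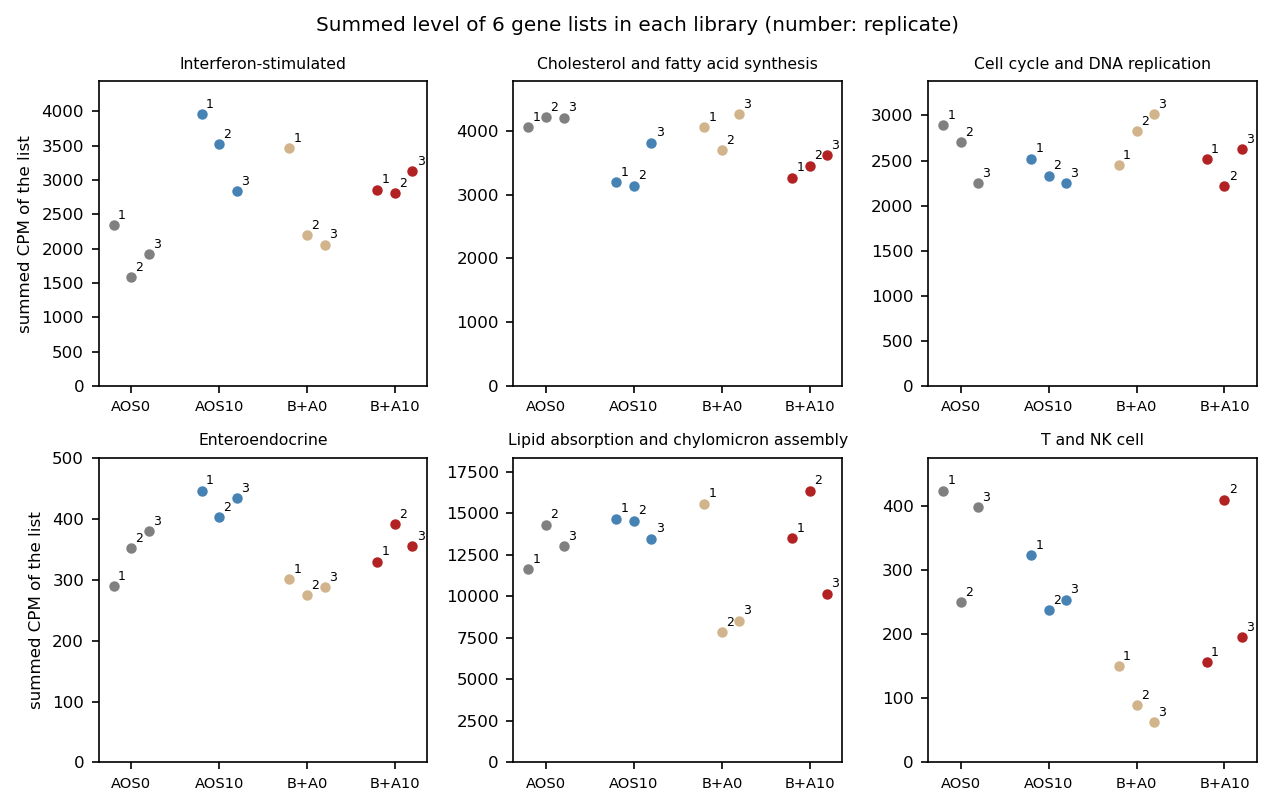
Summed CPM of 6 gene lists (vertical axis) in each library, grouped by treatment, with the replicate number beside each point. The 3 AOS10 libraries lie above the 3 AOS0 libraries for interferon-stimulated and enteroendocrine genes and below them for cholesterol and fatty acid synthesis, and B+A0 replicate 1 lies apart from B+A0 replicates 2 and 3 for the interferon and lipid absorption lists.

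Interferon-stimulated genes, which encode sensors and effectors against viruses, had the largest median among the lists with at least 8 tested genes. Of 26 tested 25 were above 0 and 21 in both states. The median log2 fold change was 0.50, 0.83 without busulfan and 0.16 with it. In the additive model 15 were higher at an unadjusted p under 0.05 and 0 lower, beside 5.14% and 4.14% of all genes. Without busulfan 17 were higher and 1 lower at that level, beside 3.2% and 3.03% of all genes, and with busulfan 0, beside 5.89% and 3.93%. The difference between the states had an unadjusted p under 0.05 for 10 of 26, beside 6.85% of all genes, and 0 passed after adjustment. The additive count was 23 without B+A0 replicate 1 (median 0.68) and 11 without B+A0 replicates 2 and 3 (median 0.39).

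Irf7, the transcription factor that amplifies the interferon response, had 229, 177 and 205 CPM in AOS0, 568, 457 and 317 in AOS10, 346, 211 and 209 in B+A0 and 413, 334 and 275 in B+A10. The AOS10 libraries lay above the AOS0 libraries, and B+A0 replicate 1 lay within the B+A10 range (edgeR log2 fold change 0.78, SE 0.19, adjusted p = 0.326). Oas3, an oligoadenylate synthetase activated by double-stranded RNA, had 106, 77.3 and 83.5 CPM in AOS0, 226, 193 and 143 in AOS10, 159, 106 and 101 in B+A0 and 154, 153 and 140.5 in B+A10. AOS10 again lay above AOS0, and B+A0 replicate 1 was higher than all 3 B+A10 libraries (edgeR log2 fold change 0.68, SE 0.17, adjusted p = 0.326; log2 fold change 1.07 without busulfan and 0.29 with it). Its relatives had log2 fold changes of 0.90 (Oas2), 0.70 (Oasl2) and 0.58 (Oas1a), where Oas1a is uncertain because reads could be split with close copies of the gene. The member below 0 was Gbp2, at a mean of 1.91 CPM (log2 fold change -0.55). Sp100, a nuclear body protein that interferon induces and that is not in the list, had 61.2, 55.3 and 48.6 CPM in AOS0, 109, 110.2 and 75.6 in AOS10, 72.4, 49.8 and 55.7 in B+A0 and 86.8, 77.5 and 79.2 in B+A10. All 6 AOS 10 libraries lay above all 6 AOS 0 libraries (edgeR log2 fold change 0.65, SE 0.12, adjusted p = 0.129). The MHC class I list, also induced by interferon, had 13 of 17 above 0 (median 0.21), beside 49.5% of all genes, and 3 higher at an unadjusted p under 0.05, beside 5.14%. Without B+A0 replicates 2 and 3 the count was 0 and the median 0.078. Dropping B+A0 replicate 1 gave 9, beside 956 higher and 569 lower of 12496 genes tested. Dropping B+A10 replicate 3 gave 7, beside 1283 higher and 1287 lower of 12498. There was 1 without AOS0 replicate 2 (median 0.095). There were 0 without AOS10 replicate 1 (median 0.12), B+A0 replicate 2 or the second B+A10 library.

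Promoters of the 2 interferon-stimulated genes with a motif match and the smallest p are shown (RefSeq GRCm38.p6, 250 bases before the start in the promoter table, of which the last 25 in Oas3 and 19 in Oas1a lie inside the gene's listed span; Oas3 at chr5:120777660-120777909, minus strand and Oas1a at chr5:120907526-120907775, minus strand). Capitals mark the core of the interferon-stimulated response element, GAAA, any 2 bases, GAAA. Oas1a held 2 matches, at 20 to 11 and 14 to 5 bases before the start, which overlap. Oas3 held 1, at 75 to 66 bases.

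Oas3: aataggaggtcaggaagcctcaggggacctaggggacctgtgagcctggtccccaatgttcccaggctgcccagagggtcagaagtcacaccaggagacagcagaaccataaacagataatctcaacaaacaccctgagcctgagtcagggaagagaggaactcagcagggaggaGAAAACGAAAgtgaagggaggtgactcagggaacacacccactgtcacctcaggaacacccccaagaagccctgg
Oas1a: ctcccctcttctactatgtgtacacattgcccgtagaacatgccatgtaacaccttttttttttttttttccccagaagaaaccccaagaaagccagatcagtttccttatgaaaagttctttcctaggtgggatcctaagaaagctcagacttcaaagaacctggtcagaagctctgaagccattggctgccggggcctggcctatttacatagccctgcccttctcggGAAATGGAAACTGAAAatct

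The motif, searched on both strands, was found in 12 of the 21 list members with a promoter in the table (57.1%), beside 3.04% of 27025 promoters.

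Genes of the cell cycle and DNA replication were slightly lower. Of 30 tested 30 were below 0, and 26 in both states, with a median of -0.16 (-0.13 without busulfan, -0.20 with it). At an unadjusted p under 0.05, 11 were lower and 0 higher, beside 4.14% and 5.14% of all genes. Dropping AOS0 replicate 1 gave 7, as did dropping B+A0 replicate 3, while dropping B+A10 replicate 2 gave 6, and dropping B+A0 replicates 2 and 3 together gave 2 (median -0.12). Ccnb1, cyclin B1, which drives entry into mitosis (gene ID 268697, chromosome 13, 100778739 to 100786486), had 81.5, 77.1 and 66.8 CPM in AOS0, 62.7, 56.8 and 55.6 in AOS10, 65.4, 74.3 and 73.2 in B+A0 and 57.4, 52.2 and 58.4 in B+A10. All 6 AOS 10 libraries lay below all 6 AOS 0 libraries (edgeR log2 fold change -0.35, SE 0.064, adjusted p = 0.129). Cdc20, which activates the complex that ends mitosis, had 99.1 to 129 CPM (median 111) in the 6 AOS 0 libraries and 84.5 to 102 CPM (median 94) in the 6 AOS 10 libraries (edgeR log2 fold change -0.26, SE 0.070, adjusted p = 0.339), and Ccna2, cyclin A2, a log2 fold change of -0.28. Mki67, the proliferation marker, had 208, 204 and 137 CPM in AOS0, 152, 168 and 140.1 in AOS10, 149, 189 and 160.4 in B+A0 and 129, 140.0 and 229 in B+A10. Its groups overlapped in both states, with B+A10 replicate 3 the highest of all (edgeR log2 fold change -0.13, SE 0.14, adjusted p = 0.823), and its log2 fold change was -0.26 without busulfan and -0.0003 with it. Tacc3, a spindle protein in no list, also did not overlap between the 6 and 6 libraries (log2 fold change -0.26).

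The Ccnb1 promoter is shown for the 2 CCAAT boxes in capitals (chr13:100786487-100786736, minus strand, RefSeq GRCm38.p6, 250 bases before the start in the promoter table), 99 to 95 and 67 to 63 bases before the start.

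Ccnb1: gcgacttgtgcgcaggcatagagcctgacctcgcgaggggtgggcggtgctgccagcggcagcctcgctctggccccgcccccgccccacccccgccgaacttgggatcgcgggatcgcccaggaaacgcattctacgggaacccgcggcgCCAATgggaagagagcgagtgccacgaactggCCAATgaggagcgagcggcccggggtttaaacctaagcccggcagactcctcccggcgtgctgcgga

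On either strand CCAAT was found in 22 of 25 cell cycle genes with a promoter in the table (88%), beside 34.5% of all promoters. The cell cycle homology region core TTTGAA was found in 8 of 25 (32%), beside 16.3%. The Ccnb1 promoter shown was searched for TTTGAA as well and held no match.

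**Figure D3:**
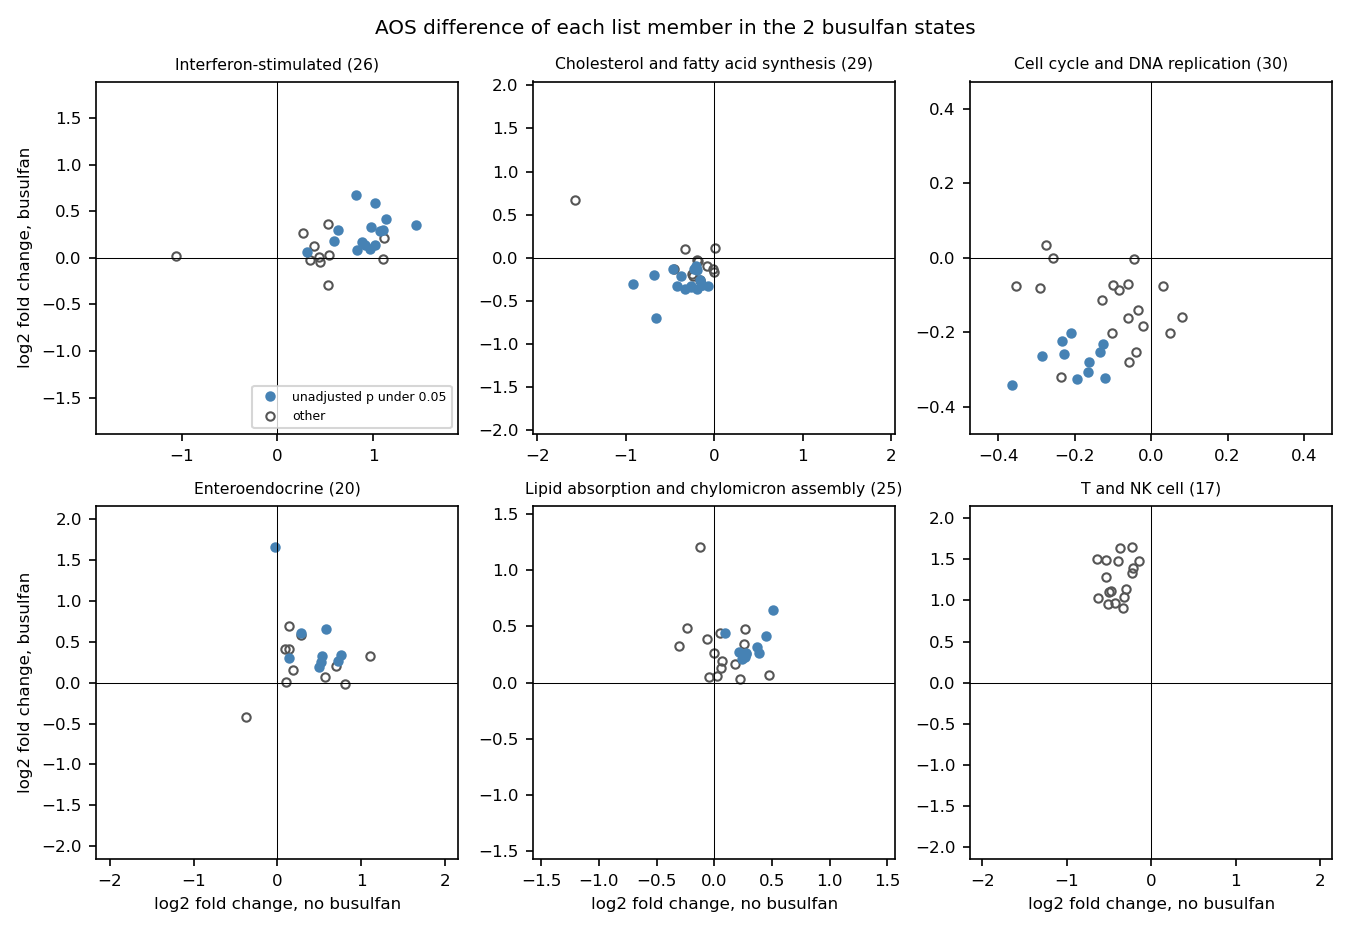
Log2 fold change of AOS 10 against AOS 0 for each tested member of 6 lists, without busulfan (horizontal axis) and with busulfan (vertical axis). Filled points have an unadjusted p under 0.05 in the additive model. Cholesterol and cell cycle genes lie mostly at lower left and lipid absorption and enteroendocrine genes mostly at upper right, whereas all 17 T and NK cell genes lie at upper left.

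Enzymes that modify drugs and hormones were mostly above 0 in the additive model and with busulfan, and fewer were above 0 without it. Of 17 tested glucuronidation, sulfation and esterase genes 16 were above 0 (median 0.24, and 0.13 without B+A0 replicates 2 and 3). Without busulfan 10 were above 0 (median 0.13), and with it 16 (median 0.44). At an unadjusted p under 0.05, 8 were higher and 0 lower, beside 5.14% and 4.14% of all genes. Without busulfan 1 was higher at that level, beside 3.2%, and with it 13, beside 5.89%. The difference between the states had an unadjusted p under 0.05 for 4 of 17, beside 6.85%, and 0 passed after adjustment. Ces2a, a carboxylesterase, had 32.7, 41.8 and 33.3 CPM in AOS0, 42.1, 69 and 69.4 in AOS10, 53, 38.3 and 34.2 in B+A0 and 80.5, 75 and 56.5 in B+A10. Levels did not overlap within either state, and across the 6 and 6 libraries AOS10 replicate 1 lay within the AOS 0 range (edgeR log2 fold change 0.75, SE 0.14, adjusted p = 0.129). Ugt1a1, which glucuronidates bilirubin, had 246 to 378 CPM (median 350.1) in the 6 AOS 0 libraries and 345 to 544 CPM (median 437) in the 6 AOS 10 libraries (edgeR log2 fold change 0.44, SE 0.11, adjusted p = 0.329), and is uncertain because Ugt1a transcripts share exons. Of 19 cytochrome P450 enzymes and their receptors 17 were above 0 (median 0.25). Without busulfan 10 were above 0 (median 0.053), and with it 18 (median 0.55). At an unadjusted p under 0.05, 1 was higher without busulfan and 9 with it, beside 3.2% and 5.89% of all genes. The difference between the states had such a p for 5 of 19, beside 6.85%, and 0 passed after adjustment. In the additive model 7 were higher at that level, beside 5.14% of all genes. Dropping B+A10 replicate 1 gave 4, as did dropping B+A0 replicate 2 or 3, and 1 was left when the latter were both dropped (median 0.11), and the median was 0.16 without B+A10 replicate 2. Cyp3a11, the main drug-oxidizing P450 and a chosen marker, had 40.6, 126 and 44.1 CPM in AOS0, 32.2, 41.8 and 37.4 in AOS10, 33, 21.9 and 11.4 in B+A0 and 29.6, 56.1 and 19.2 in B+A10. AOS0 replicate 2 was the highest of all and the groups overlapped in both states (edgeR log2 fold change -0.15, SE 0.40, adjusted p = 0.936).

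Adh1, an alcohol dehydrogenase that also oxidizes retinol, had 333, 458 and 383 CPM in AOS0, 484, 437 and 516 in AOS10, 206, 176 and 162 in B+A0 and 336, 477 and 323 in B+A10. The groups did not overlap with busulfan and overlapped without it (edgeR log2 fold change 0.68, SE 0.15, adjusted p = 0.28; log2 fold change 1.06 with and 0.29 without busulfan, unadjusted interaction p 0.00416, adjusted p = 0.499). Of 17 tested retinoid metabolism genes, Adh1 among them, 14 were above 0 (median 0.21), with 3 higher and 1 lower at an unadjusted p under 0.05 (in all 2 without B+A0 replicates 2 and 3, median 0.084; the median was 0.12 without B+A0 replicate 2). The lower one in the additive model was Bco1, which cleaves beta-carotene. Its 6 AOS 10 libraries lay below its 6 AOS 0 libraries at a mean of 2.17 CPM (log2 fold change -0.65).

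Inducible defence genes of the epithelium were lower, with larger values in the busulfan state. Of 17 tested 13 were below 0, beside 50.5% of all genes, with a median of -0.34 (-0.13 without busulfan, -0.54 with it; -0.29 without B+A0 replicates 2 and 3). In the additive model 7 were lower at an unadjusted p under 0.05 and 0 higher, beside 4.14% and 5.14% of all genes (7 became 6 without B+A0 replicates 2 and 3). The difference between the states had an unadjusted p under 0.05 for 5 of 17, beside 6.85%, and 0 passed after adjustment. Reg3b, a secreted antimicrobial lectin, had 3459.7, 4683 and 9426 CPM in AOS0, 3065, 3954 and 4909.6 in AOS10, 7126, 5782 and 9222 in B+A0 and 2752, 3934 and 5550.1 in B+A10. AOS0 replicate 3 was the highest of all, and the groups overlapped without busulfan and not with it (edgeR log2 fold change -0.71, SE 0.23, adjusted p = 0.402). Reg3g, its relative, had a log2 fold change of -0.73 and Retnlb, a goblet cell cytokine, -0.48. Duox2, the hydrogen peroxide-producing oxidase, had 325, 369 and 465 CPM in AOS0, 330.4, 353 and 426 in AOS10, 557, 539.7 and 654 in B+A0 and 313, 377 and 396 in B+A10. B+A10 lay below B+A0, and the 2 groups without busulfan overlapped (edgeR log2 fold change -0.38, SE 0.13, adjusted p = 0.413).

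Among the remaining genes with the smallest p named here, those lower at AOS 10 were Mboat1, Cldn2, Tlr1, Fgfbp1 and Cacna1f. Mboat1, a lysophospholipid acyltransferase, had 24.5, 23.1 and 24.7 CPM in AOS0, 13.9, 11.9 and 15.7 in AOS10, 25.6, 18.8 and 23.6 in B+A0 and 14.1, 17 and 19.4 in B+A10 (edgeR log2 fold change -0.61, SE 0.11, adjusted p = 0.129). The groups did not overlap without busulfan, and B+A10 replicate 3 lay above B+A0 replicate 2. Cldn2, a pore-forming tight junction claudin of crypt cells, had 229.6, 228 and 229 CPM in AOS0, 178, 164 and 173 in AOS10, 232, 254 and 258 in B+A0 and 187, 168 and 233 in B+A10 (edgeR log2 fold change -0.38, SE 0.072, adjusted p = 0.129). B+A10 replicate 3 stood above the other AOS 10 libraries and level with the lowest AOS 0 libraries. Tlr1, a partner of the lipoprotein receptor TLR2, had 15.3 to 22.9 CPM (median 19.1) in the 6 AOS 0 libraries and 12.5 to 15.5 CPM (median 13.6) in the 6 AOS 10 libraries (edgeR log2 fold change -0.48, SE 0.091, adjusted p = 0.129). Fgfbp1, a carrier of fibroblast growth factors, had 62.6 to 94 CPM (median 72.5) in the 6 AOS 0 libraries and 50.8 to 66.4 CPM (median 57.4) in the 6 AOS 10 libraries (edgeR log2 fold change -0.35, SE 0.077, adjusted p = 0.255). Of 24 tested genes of tight, adherens and desmosomal junctions, Cldn2 among them, 15 were above 0, with a median of 0.0087 (-0.021 without B+A0 replicates 2 and 3 and -0.0076 without B+A10 replicate 2).

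Cacna1f, a calcium channel subunit best known from the retina (gene ID 54652, chromosome X, 7607103 to 7635196), had the smallest p in the comparison. It had 1257 counts in all over the 6 AOS 0 libraries and 4 over the 6 AOS 10 libraries, and its level was 3.62, 26.8 and 0.296 CPM in AOS0, 0, 0.0648 and 0.0668 in AOS10, 17.9, 27.8 and 2.18 in B+A0 and 0, 0 and 0.123 in B+A10. The 6 and 6 libraries did not overlap, but within AOS 0 the highest library was far above the lowest (0.296 and 27.8 CPM). The fitted value (edgeR log2 fold change -8.30, SE 1.32, adjusted p = 0.129) rests on the 4 counts at AOS 10 and is no bound. It passed without AOS0 replicate 3 (adjusted p = 0.0234, edgeR) and without B+A0 replicate 1 (adjusted p = 0.0371, edgeR). On the log2(FPKM + 1) scale, with limma, it was -1.51. No other gene overlaps its span in RefSeq.

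Those higher were Rnase1, Rtn4rl1, Abcb9 and N4bp2l1, with Chgb, Sp100, Ces2a and Mt2 already given. Rnase1, a secreted ribonuclease, had 1.62, 0.787 and 0.887 CPM in AOS0, 4.79, 1.88 and 2.74 in AOS10, 0.69, 0.655 and 0.97 in B+A0 and 1.27, 3.37 and 3.37 in B+A10 (edgeR log2 fold change 1.65, SE 0.31, adjusted p = 0.129). It is expressed at a low level, and only AOS0 replicate 1 and B+A10 replicate 1 lay in the order opposite to the groups. Rtn4rl1, a relative of the Nogo receptor, had 19 to 25.3 CPM (median 22.7) in the 6 AOS 0 libraries and 26.7 to 34.5 CPM (median 30.3) in the 6 AOS 10 libraries, with no overlap of the 6 and 6 libraries (edgeR log2 fold change 0.44, SE 0.084, adjusted p = 0.129; its span overlaps 2 long noncoding genes). Abcb9, a peptide transporter of lysosomes, had 12.6 to 18.3 CPM (median 14.8) in the 6 AOS 0 libraries and 17.6 to 23.2 CPM (median 19.7) in the 6 AOS 10 libraries (edgeR log2 fold change 0.43, SE 0.087, adjusted p = 0.167). N4bp2l1 had 3.82, 4.98 and 4.66 CPM in AOS0, 6.32, 6.54 and 5.61 in AOS10, 5.52, 6.25 and 4.24 in B+A0 and 9.03, 8.5 and 8.83 in B+A10 (edgeR log2 fold change 0.59, SE 0.12, adjusted p = 0.167), with the 3 B+A10 libraries highest. DESeq2 called all 15 of the genes with the smallest p that are named here, with adjusted p from 1.06e-06 (Cacna1f) to 0.0186 (Fgfbp1).

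Immediate early genes, which respond to stimuli within minutes, were all above 0 in the additive model (17 of 17, 12 in both states). The median was 0.30 (0.14 without busulfan, 0.41 with it). Without busulfan 0 were higher and 1 lower at an unadjusted p under 0.05, beside 3.2% and 3.03% of all genes. With busulfan 8 were higher and 0 lower, beside 5.89% and 3.93%. The lower one was Klf6 (log2 fold change -0.40 without and 0.40 with busulfan). In the additive model 6 were higher at that level, beside 5.14%. The count was 3 without AOS10 replicate 1 or B+A10 replicate 1 (median 0.13 without the latter) and 3 without B+A0 replicates 2 and 3. Egr1, a zinc finger transcription factor, had 7.57, 6.49 and 6.36 CPM in AOS0, 9.51, 7.32 and 5.94 in AOS10, 9.72, 7.5 and 11.8 in B+A0 and 312, 115 and 22 in B+A10. The additive value (edgeR log2 fold change 2.35, SE 0.76, adjusted p = 0.394) rested on the 3 B+A10 libraries, which all lay above the other 9 and differed widely from each other. Fos had 31.5, 38.6 and 37.3 CPM in AOS0, 68.2, 42.1 and 28.7 in AOS10, 50.6, 34.4 and 37.7 in B+A0 and 228, 130.0 and 47.3 in B+A10 (edgeR log2 fold change 1.06, SE 0.35, adjusted p = 0.402), with B+A10 replicates 1 and 2 highest. Btg2, an antiproliferative gene of the same list, did not overlap within either state (log2 fold change 0.37).

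Some lists had additive values that stood for neither busulfan state. All 17 tested T and NK cell genes were below 0 without busulfan (median -0.39) and above 0 with it (median 1.29), beside 47.8% and 51.8% of all genes above 0 in the respective states, so that an additive median of 0.39 lay between opposite signs. The difference between the states had an unadjusted p under 0.05 for 16 of 17, beside 6.85% of all genes. After adjustment 0 passed (smallest adjusted p over all genes 0.499, edgeR). The summed level was 424, 250.3 and 399 CPM in AOS0, 323, 238 and 254 in AOS10, 149.8, 89.7 and 63.2 in B+A0 and 157, 410.1 and 195 in B+A10. B+A10 replicate 2 was the highest busulfan library, and without it the additive median was -0.022. Dropping B+A0 replicate 2 gave 0.21, dropping B+A0 replicate 3 gave 0.12, and dropping both gave -0.081. Cd3e, a subunit of the T cell receptor complex and a chosen marker, had log2 fold changes of -0.53 and 1.5, and the mast cell protease Mcpt1 -0.29 and 0.79. The part of these lymphocyte and mast cell levels in the results above was not tested. Of 6 tested HoxB genes, which mark position along the body axis, 4 were lower at an unadjusted p under 0.05 without busulfan (list median -2.92), beside 3.03% of all genes, and 1 gene higher with it (median 1.07), beside 5.89%. Hoxb9 had 8.41, 7.67 and 17.3 CPM in AOS0, 0.614, 0.777 and 0.401 in AOS10, 0.878, 1.91 and 0.606 in B+A0 and 0.364, 5.31 and 1.41 in B+A10.

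**Figure D4:**
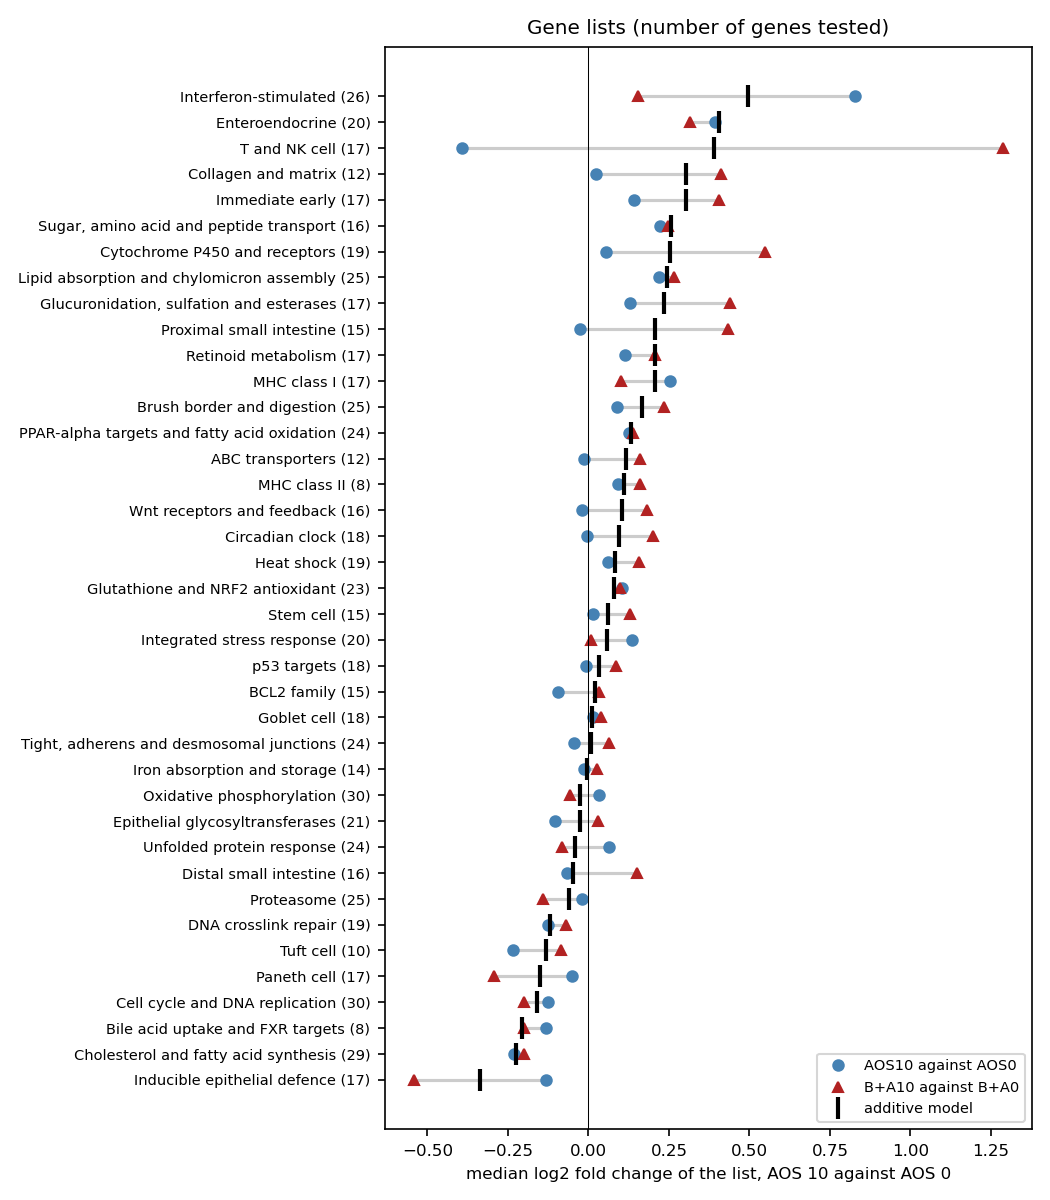
Median log2 fold change of AOS 10 against AOS 0 (horizontal axis) for the 39 lists with at least 8 tested genes, without busulfan (circles), with busulfan (triangles) and in the additive model (bars), with the number of genes tested in brackets. The 2 states lie close together for cholesterol synthesis, lipid absorption and cell cycle genes and far apart for T and NK cell and interferon-stimulated genes.

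Across all genes the 2 busulfan states, which share no library, resembled each other little. Over these 11637 genes the log2 fold changes of the states had a Pearson r of -0.107 and a Spearman rho of 0.0859, across genes, which are not independent replicates, and 52.2% had the same sign. Of 733 genes with an unadjusted p under 0.05 without busulfan, 65.9% had the same sign with busulfan, and of 1157 with an unadjusted p under 0.05 with busulfan, 53.8% had the same sign without it. No gene was called within either state (smallest adjusted p 0.119 without and 0.0826 with busulfan, edgeR) or for the difference between them, where 844 genes (6.85%) had an unadjusted p under 0.05. DESeq2 called 63 genes without and 82 with busulfan and 17 for the difference, and edgeR fitted to the 6 libraries without busulfan alone called 62. Within the states 768 (6.23%) and 1210 genes (9.81%) had an unadjusted p under 0.05.

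**Figure D5:**
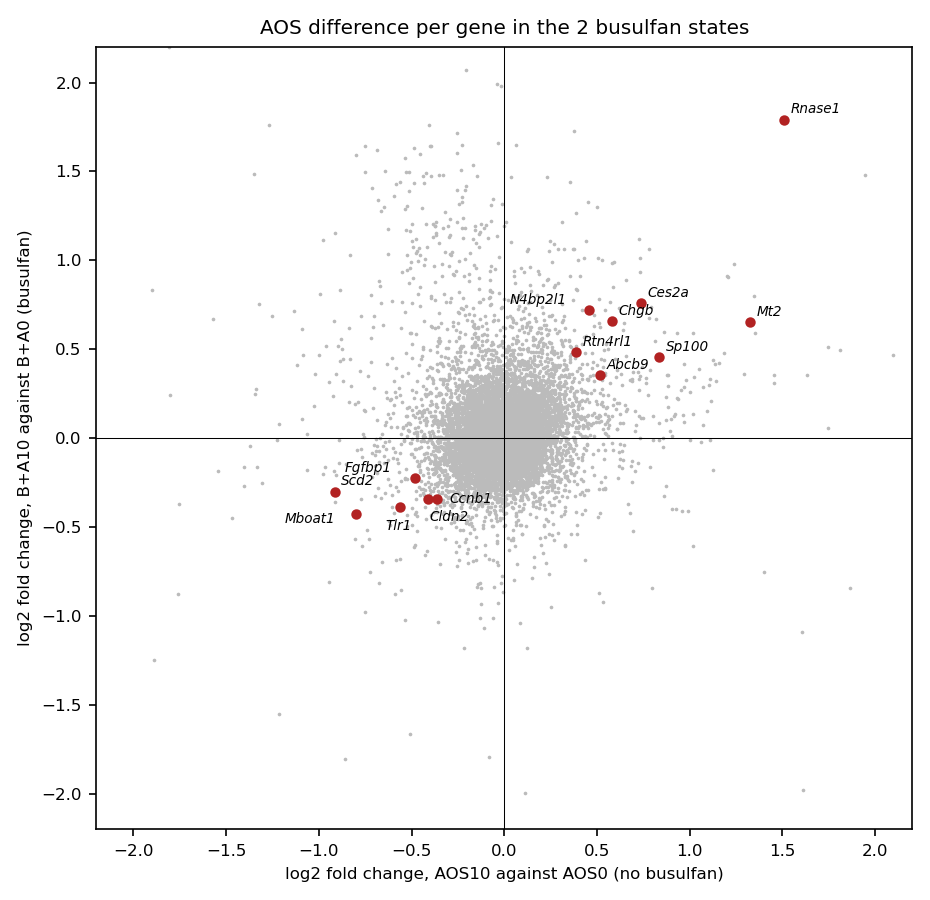
Log2 fold change of AOS 10 against AOS 0 for each of 11637 genes, without busulfan (horizontal axis) and with it (vertical axis), with the named genes of smallest p in red and 22 genes, Cacna1f among them, outside the axes. The red genes, chosen from the model over both states, lie at upper right or lower left, while the cloud as a whole shows no common slope and a group of genes reaches to upper left.

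Lgr5, Muc2 and Lyz1, the single markers chosen for stem, goblet and Paneth cells, lay within 1 SE of 0, which does not hold for every member of their lists. Lgr5, the crypt stem cell marker, had a log2 fold change of 0.11 (SE 0.17; 0.020 to 0.22 with 1 library left out), Muc2, the goblet cell mucin, 0.030 (SE 0.093), Lyz1, the Paneth cell lysozyme, -0.14 (SE 0.20) and Hspa5, the endoplasmic reticulum chaperone, 7.3e-05 (SE 0.083). None passed, with adjusted p from 0.873 (Lyz1) to 1 (Hspa5, edgeR). Per1, a clock gene, had 13.5 to 36.7 CPM (median 18.5) in the 6 AOS 0 libraries and 20.3 to 55.9 CPM (median 26.6) in the 6 AOS 10 libraries (edgeR log2 fold change 0.48, SE 0.17, adjusted p = 0.413). Banp, a nuclear matrix-associated protein, had 12.7, 12.3 and 9.76 CPM in AOS0, 22.9, 22.7 and 22.6 in AOS10, 34.8, 40.5 and 44.8 in B+A0 and 60.8, 37.6 and 48.4 in B+A10; AOS10 lay above AOS0, and the busulfan groups overlapped (edgeR log2 fold change 0.60, SE 0.14, adjusted p = 0.326). Of 15 tested stem cell genes 11 were above 0, of 18 goblet cell genes 9, of 24 unfolded protein response genes 8, of 18 p53 targets 10 and of 30 oxidative phosphorylation subunits 13, beside 49.5% of all genes. With any 1 library left out the medians of these 5 lists ran from -0.068 (unfolded protein response, B+A10 replicate 3 dropped) to 0.12 (stem cell, AOS10 replicate 3 dropped). With B+A0 replicates 2 and 3 dropped they ran from -0.021 (goblet cell) to 0.12 (stem cell). Of 17 Paneth cell genes 13 were below 0, beside 50.5% of all genes. There were 4 lower and 1 higher at an unadjusted p under 0.05, beside 4.14% and 5.14% of all genes. In either direction there were 2 when AOS10 replicate 3 was dropped, 3 when AOS0 replicate 2, B+A0 replicate 1, B+A0 replicate 3 or B+A10 replicate 2 was, and 4 when B+A0 replicates 2 and 3 were. Their median of -0.15 was -0.096 in that last fit, -0.053 without AOS10 replicate 3, -0.24 without AOS0 replicate 3 and -0.31 without AOS10 replicate 1. Among them Mmp7, which activates defensins, had a log2 fold change of -0.41, and in the goblet cell list Retnlb, given above, was also below 0.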

How the data were processed

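RNA sequencing of total RNA from mouse small intestine gave 12 libraries, 3 in each of 4 groups. Per the file headers, the authors deposited expected counts (8.9% to 9.33% of values not whole, tolerance 1e-06) and FPKM per gene. Per the submitters' processing notes the genome was mm10. The read aligner, the counting tool, its annotation and strandedness are steps not given in the sources used here. Expected counts were rounded, genes were filtered (filterByExpr, 12329 of 16942 tested), scaled by TMM and fitted with edgeR 4.0.16 in R 4.3.3: busulfan plus AOS as the main model, and 4 group means for the effect within each state and their difference. P-values were adjusted by Benjamini and Hochberg over all genes tested, with a threshold of 0.05. FPKM were used with limma 3.58.1 on log2(FPKM + 1) and, as a second pseudocount, 0.1. DESeq2 1.42.0 was an alternative. Levels per gene are TMM-scaled CPM, which are not per length.

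Genes named are the 8 with the smallest p in each direction, since fewer than 5 were called, among those averaging 1 CPM or more, unnamed loci left out, together with 16 chosen markers. Some genes are not reported here by name. Other genes are examples of lists or were picked after their values were seen (Mt1, Mtf1, Slc30a1, Slc39a4, Slc6a4, Tacc3). Among the list examples, Cdc20 and Ugt1a1 were also picked after their values were seen. The comparison, members and lists were chosen with earlier results of these data known. Sequences are RefSeq promoters of GRCm38.p6. Scripts were tested on simulated data.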

Additional observations from a re-analysis of the deposited data

Results flagged for a closer look

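Within 6 libraries of 1 AOS level, 2 values of the named genes stood far from the others by Dixon's criterion. The gap over the range, on log CPM with 0.5 added, was above 0.625. Mboat1 in B+A0 replicate 2 was 18.8 CPM, below the next AOS 0 library at 23.1 and the highest at 25.6 (0.672 of the log range). Cldn2 in B+A10 replicate 3 was 233 CPM, above the next AOS 10 library at 187 and the lowest at 164 (0.633 of the log range). These came from 64 checks on 32 genes, and chance marks about 1 in 20 groups.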

How the results depend on the processing

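In all, 23 alternatives were run. For the AOS main effect, 0 genes were called by edgeR, 51 with DESeq2, 62 with only the libraries without busulfan, 1 with limma on log2(FPKM + 1) or log2(FPKM + 0.1), and 0 to 23 with 1 library left out. The count at an unadjusted p under 0.05 that was higher (634) was 360 without B+A0 replicates 2 and 3 and 461 to 1283 with 1 library left out. The count lower (510) was 817 with only the libraries without busulfan, 187 with only those with busulfan, and 341 to 1287 with 1 library left out. Without busulfan (0 called) DESeq2 called 63 genes, no filter gave 8, and 1 library left out gave 0 to 28. With busulfan (0 called) these were 82, 5 and 0 to 51. For the difference between the states (0 called) DESeq2 called 17, and 1 library left out gave 0 to 1. The 587 calls for busulfan were 1215 with DESeq2, 60 without B+A0 replicates 2 and 3, and 228 to 1186 with 1 library left out. The cause of these shifts was not tested.

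Groups share replicate numbers, but same-numbered libraries did not deviate together: over 18 pairs r was -0.16 to 0.17, over 0.1 in 1, and 3 of 12 libraries correlated best with their own number. With the replicate number as a block, 1 gene was called for AOS (Cacna1f, adjusted p = 0.00102, edgeR), 15 without busulfan, 4 with busulfan and 323 for busulfan itself. Hspa5 was then -0.00676.

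Of the log2 fold changes of named genes, 669 values under alternatives kept direction and side of the threshold, 39 passed it and 26 turned sign. All sign changes were in chosen markers. With only the libraries without busulfan the value was -0.097 for Lgr5, -0.53 for Cd3e and -0.29 for Mcpt1. With only those with busulfan it was 0.012 for Mki67, -0.012 for Muc2, 0.67 for Cyp3a11 and -0.085 for Hspa5. Without B+A0 replicates 2 and 3 it was -0.027 for Muc2, -0.11 for Cd3e and -0.12 for Fabp1. With limma it was -0.029 for Hspa5 at either pseudocount. With 1 library left out the range was -0.017 to 0.093 for Muc2, -0.34 to 0.0037 for Lyz1, -0.17 to 0.53 for Mcpt1, -0.016 to 0.35 for Fabp1, -0.46 to 0.27 for Cyp3a11 and -0.058 to 0.068 for Hspa5. Depth limits Cacna1f at AOS 10, where each library held 0 to 2 counts.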
